A study of Mus musculus with 8 samples.

Results

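The MICAL and MICAL-like genes are a family of 5 mouse genes, Mical1, Mical2, Mical3, Micall1 and Micall2, and all 5 have a row among the 15978 rows of the authors' deposited table. The members were chosen by name, through the RefSeq transcript accessions that name each row. The family was picked with the results of this comparison known, in which Mical2 lay among the rows of smallest p, so the fold changes and p-values of its members are a description and support nothing by themselves. Brain RNA of 5 male mice that carried a bacterial artificial chromosome (BAC) with human C9ORF72 and 500 G4C2 repeats, called C9-BAC here, was sequenced beside that of 3 male wild-type mice. All 8 mice were on the SJL/Bl6 background. The labels give no age, brain region or transgenic line, and say nothing of pooling, so each numbered sample was taken as 1 mouse; if that is wrong, the p-values reflect a spread that may be technical. The deposited table holds 1 set of values for the whole comparison, so no value per mouse was used here, and the genotype in the numerator of the fold change is not stated. Signs are therefore given as deposited, and positive does not mean higher in C9-BAC brain.

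MICAL proteins are flavin-dependent monooxygenases that oxidise methionine residues of actin, which makes filaments come apart. They act downstream of semaphorins and their plexin receptors in the repulsion of growing axons, and methionine sulfoxide reductases of the MsrB class reverse the oxidation. The MICAL-like proteins lack the enzyme domain but share the calponin homology and LIM domains and a C-terminal Rab-binding domain, called bMERB, through which they work in membrane traffic. In the brain the family is known for axon guidance and for the turnover of actin in neurites.

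The enzyme domain is what sets Mical1, Mical2 and Mical3 apart from Micall1 and Micall2, and the stretches that encode its flavin-binding fingerprint are shown because the 2 members with the highest levels in this brain RNA both carry it. Each stretch has 60 bases of the longest GENCODE vM21 (GRCm38) coding transcript of the row, with the 18 bases of the fingerprint in capitals, and each is interrupted by an intron in the genome.
Mical1, from codon 91, chr10:41478306-41478478, plus strand: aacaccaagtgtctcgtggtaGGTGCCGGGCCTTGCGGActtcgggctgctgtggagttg
Mical2, from codon 93, chr7:112271561-112303638, plus strand: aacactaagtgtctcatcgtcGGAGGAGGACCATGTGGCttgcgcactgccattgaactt
Mical3, from codon 93, chr6:121040539-121042004, minus strand: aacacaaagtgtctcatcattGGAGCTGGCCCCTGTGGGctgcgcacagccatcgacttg
Codon numbers refer to the first base in capitals. Mical2 and Mical3 were identical at 46 of these 60 bases (76.7%), Mical1 and Mical3 at 41 (68.3%), and Mical1 and Mical2 at 39 (65.0%). The letters GGNNNNGGNCCNTGNGGN, read in the coding frame of the sense strand only, occurred in 17 of 21877 genes with a coding transcript (0.0777%). They were set so as to cover all 3 enzymes, so that the match in these 3 is no finding. Both transcripts of the Mical2 row and both of the Mical3 row hold the letters. Of the 2 transcripts of the Mical1 row, 1 does not, Mical1-202, which leaves out the coding exon in which the letters lie. Neither MICAL-like transcript holds them. The longest exact stretch shared by transcripts of any 2 of the 5 members was 12 to 20 bases over the 10 pairs.

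Mical2 had the highest level per kilobase in the family when the longest transcript, or the shortest, was used for every member. Its mean normalized count, the mean over the samples of counts scaled for library size, was 3556.7 by the authors' deposited table. The authors' deposited table lists 1668.3 for Mical3, 318.4 for Micall1, 86.2 for Mical1 and 13.6 for Micall2. These counts grow with transcript length, so they give the reads behind each row and not an order of levels. No spread over mice stands beside these means, because the table gives none.

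Levels were compared between genes per length, as the mean normalized count divided by the length in kilobases of the longest transcript of the row. On this scale Mical2 had 533.3, Mical3 181.3, Micall1 47.4, Mical1 24.2 and Micall2 4.08, while the median row had 59.7. Mical2 and Mical3 thus lay above the median row, and the other members below it. Mical2 made up 67.5% of the summed level per kilobase of the family, Mical3 22.9%, Micall1 6.002%, Mical1 3.06% and Micall2 0.516%. With the shortest transcript of each row these shares were 61.7% for Mical2, 33.8% for Mical3, 2.76% for Micall1, 1.52% for Mical1 and 0.237% for Micall2. The order was the same, but the share of Mical3 was larger and those of Micall1, Mical1 and Micall2 were smaller. The gap between the first and the second was smaller on that basis, with a ratio of Mical2 to Mical3 of 1.83 in place of 2.94. The order of these 2 does not hold for mixed lengths: Mical2 had 533.3 on its longest transcript and Mical3 580.3 on its shortest. Which transcripts the reads came from is not known. How reads were counted is not stated in the labels, and reads counted outside annotated exons would raise these levels.

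**Figure D1:**
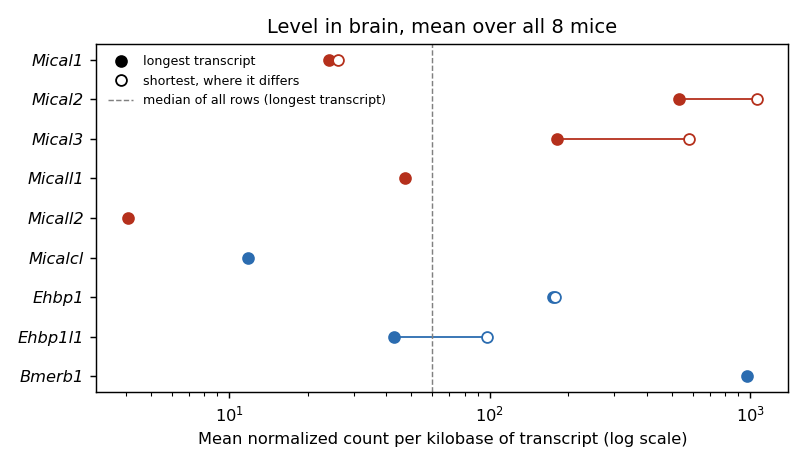
Mean normalized count per kilobase of transcript (log scale) for the 5 family members (red) and 4 genes that share the bMERB domain (blue). Filled points use the longest transcript of the row, open points the shortest where it differs, and the dashed line is the median of all rows at 59.7; Mical2 and Mical3 lie above it and Mical1, Micall1 and Micall2 below it.

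Mical2 had the largest deposited fold change of the 5 members. Fold changes are given from here on as log2 fold change ± standard error, both taken from the authors' deposited table. Mical2, on chromosome 7 at 112225825 to 112355194 (GRCm38, also called mm10), had 0.31 ± 0.09 there, which is a 1.24-fold difference. The other 4 lay between -0.10 and 0.11 on this scale. The authors' deposited table gives every member a DESeq2 adjusted p of 0.9997, so none passed the threshold of 0.05. None of the 15944 rows with a p passed it (0%). At an unadjusted p under 0.05, 1 of the 5 members, Mical2, was counted, against 239 of all rows with a p (1.5%), of which 105 had a positive sign (0.659% of all rows with a p). Nothing is read from this count, since the family was chosen on it. In bulk tissue, fewer cells of a type and less RNA per cell cannot be told apart.

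**Figure D2:**
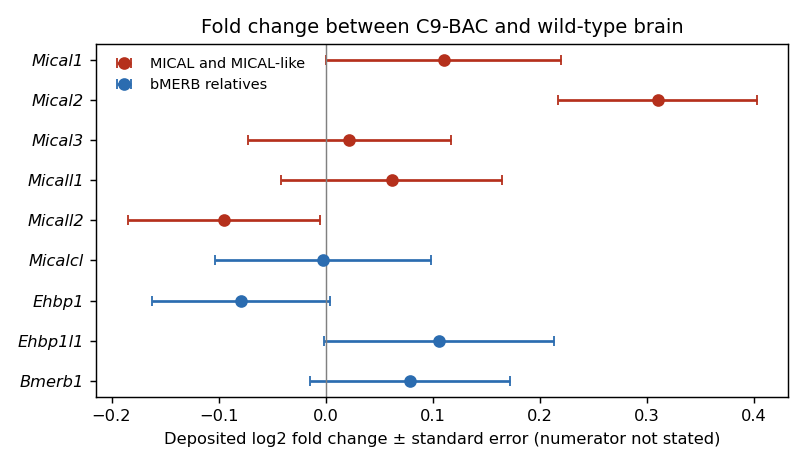
Log2 fold change of each gene as deposited (horizontal axis), with bars of 1 standard error, for the 5 family members (red) and the 4 bMERB relatives (blue); the numerator is not stated. Mical2 lies at 0.31, and the other 8 genes lie between -0.10 and 0.11.

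Mical2 encodes the member that also acts in the nucleus, where oxidation of actin by it frees the MRTF coactivators of the transcription factor SRF. Its Wald statistic, the fold change over its standard error, was 3.34 by the authors' deposited table, with an unadjusted p of 0.000825. Only 2 rows in the table, Lamp5 and 5930438M14Rik, had a larger absolute statistic. Of 970 other rows with a mean normalized count between 0.5 and 2 times that of Mical2, 0 had an absolute log2 fold change as large, and their median was 0.05. Larger ones stood outside this window, such as Lamp5 at 0.35. The rows nearest to Mical2 in mean normalized count were Rapgef2, Cbx5, Tef, Inpp4a and Rap1gap2, which the authors' deposited table puts between -0.09 and 0.06. The family was picked with the small p of Mical2 known, so its rank and its lead over these rows are a description and no support. The standard error of Mical2 was not unusual for its count: 40.3% of the 970 rows had a smaller one. No standard error of any row exceeded 0.11 in the authors' deposited table, as happens when a prior shrinks estimates. No source used here records such a step, and its effect on the value of Mical2 was not tested.

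Mical1, the member that binds the adaptor Nedd9 and CRMP proteins, stood at 0.11 ± 0.11 in the authors' deposited table. Its 95% interval from that standard error ran from -0.11 to 0.33. Mical3, an enzyme with a role in the docking of secretory vesicles, stood at 0.02 ± 0.09 by the same table, with an interval from -0.16 to 0.21. Whether the 2 genes differ in fold change was not tested, because that needs values per mouse. Micall1, which acts in the recycling of membrane receptors, stood at 0.06 ± 0.10, with an interval from -0.14 to 0.26. Micall2, a partner of Rab13 in the assembly of tight junctions, had the only negative sign, at -0.10 ± 0.09 in the authors' deposited table. Its mean normalized count, 13.6, was the smallest of the 5, and its interval ran from -0.27 to 0.08. If a prior was used, these intervals may be too narrow for genes with few reads.

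**Figure D3:**
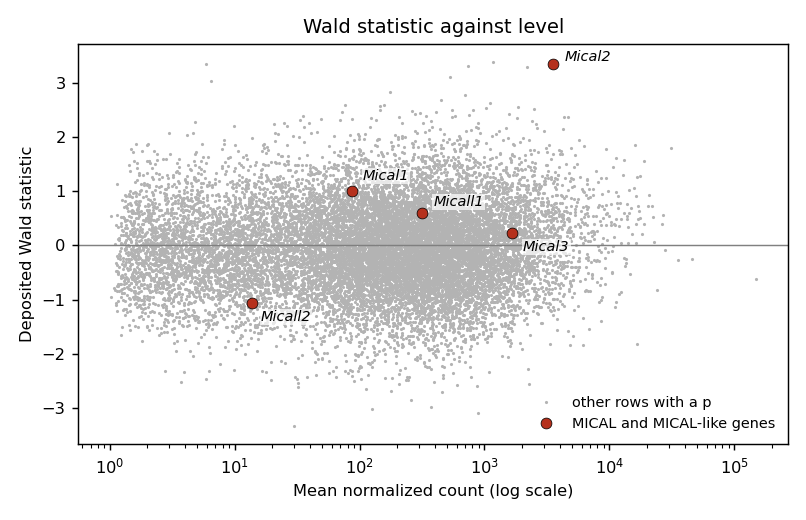
Deposited Wald statistic (vertical axis) against the mean normalized count (horizontal axis, log scale) for each row with a p (grey), with the 5 family members in red. Mical2 lies at the upper edge at 3.34, and the other 4 members lie between -1.06 and 1.004, within the bulk of rows.

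The Mical2 locus gives a second, separate reading. The table has a row for Micalcl, the gene of a MICAL C-terminal-like protein, on the same chromosome from 112368308 to 112413104, 13.1 kb beyond the end of Mical2. GENCODE vM21 joins both into 1 gene, Mical2, from 112225856 to 112413106. Of its 13 transcripts, 6 have exons in the Mical2 part only, 5 in the Micalcl part only and 2 in both. The part that Micalcl covers holds the bMERB domain, which the RefSeq transcripts of the Mical2 row, with 960 and 1102 codons, lack. For Micalcl the authors' deposited table lists a mean normalized count of 28.2, or 11.8 per kilobase, and the level per kilobase of Mical2 was 45.4 times as high. Most counts of the 2 rows together were thus those of the enzyme part. The authors' deposited table puts the fold change of Micalcl at -0.003 ± 0.10, with an interval from -0.20 to 0.19. Whether it differs from Mical2 in fold change was not tested. The longest exact stretch shared by both rows' transcripts was 12 bases.

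The rows next to the members along the chromosomes were examined because reads of a long gene can be counted in a neighbour. Of the 20 neighbouring rows, 2 on each side of each member, 8 had a positive and 12 a negative sign in the authors' deposited table. An unadjusted p under 0.05 was found for 0 of the 20. Over all rows with a p, 47.5% were positive and 1.5% had an unadjusted p under 0.05. Before Mical2 lies Dkk3, a gene of the Dickkopf family, which the authors' deposited table puts at a mean normalized count of 3800.9 and a fold change of 0.13 ± 0.10. The values of Usp47, a deubiquitinase gene beyond it, and of Parva, an actin-binding adaptor gene on the other side, were -0.08 and -0.06 there. Smpd2, which starts 142 bases after the end of Mical1, stood at 0.01 by the authors' deposited table. The row 1700088E04Rik, which overlaps the end of Micall1 by 2245 bases, had 0.01 there as well, so the Micall1 row is uncertain where reads fall in the overlap.

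The other genes with a bMERB domain, apart from Micalcl, were Bmerb1, Ehbp1 and Ehbp1l1. Bmerb1 had a higher level per kilobase than any family member on the longest transcript, 972.3, followed by Ehbp1 with 175.1 and Ehbp1l1 with 42.9. With the shortest transcript, Mical2 exceeded Bmerb1, by a ratio of 1.09. The authors' deposited table puts Bmerb1 at 0.08 ± 0.09, Ehbp1 at -0.08 ± 0.08 and Ehbp1l1 at 0.11 ± 0.11. None passed the threshold, as no row of the table did (0%).

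Upstream in the pathway are the semaphorins, the guidance ligands. None of 20 passed the threshold of 0.05 on the adjusted p from DESeq2, as no row of the table did (0%). Of these, 9 had a positive and 11 a negative log2 fold change in the authors' deposited table, with a median of -0.01. Over all rows with a p, the median was -0.004 and 47.5% were positive. The median transcript GC content of the list was 56.5%, and 66.1% of the rows in the quintile highest in GC content, which holds this value, were positive. Sema7a, a membrane-anchored semaphorin, stood at 0.23 ± 0.09 in the authors' deposited table (unadjusted p = 0.00853 by the Wald test). It was the 1 of 20 with an unadjusted p under 0.05, against 1.5% of all rows with a p in either direction and 0.659% with a positive sign. Its receptor gene Plxnc1 had -0.01 there. Of the 11 plexin and neuropilin receptor genes, 7 were positive and 4 negative in the authors' deposited table, with a median of 0.02, and none passed. Nrp2, a co-receptor for class 3 semaphorins, stood at -0.21 ± 0.11 in the authors' deposited table (unadjusted p = 0.0449 by the Wald test). It was the 1 of 11 with an unadjusted p under 0.05, against 1.5% of all rows with a p in either direction and 0.84% with a negative sign. The class A plexins, the receptors best known to act through MICAL, had values from 0.01 for Plxna3 to 0.06 for Plxna1 in the authors' deposited table.

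No gene of the methionine sulfoxide reductases or of the actin machinery itself passed the threshold, as no row of the table did (0%). Of the 4 methionine sulfoxide reductase genes, 3 were positive and 1 negative in the authors' deposited table, with a median of 0.06. Msra, which is not of the MsrB class, is among the positive ones at 0.04. Msrb2, the mitochondrial form, stood at 0.17 ± 0.11 by the authors' deposited table, and Msrb1, the form known to act on actin, had -0.02. Of 41 genes of actin and its filament regulators, 20 were positive and 21 negative in the authors' deposited table, with a median of -0.001. Among all rows with a p, 47.5% were positive, with a median of -0.004. The lowest and the highest of them were the cofilin gene Cfl2 at -0.19 and the bundling protein gene Fscn1 at 0.17 in the authors' deposited table. The substrate genes Actb and Actg1, with mean normalized counts of 17318.1 and 9676.1, stood at 0.06 and 0.10 on the log2 scale by the authors' deposited table.

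Genes that SRF and MRTF control are known to lie downstream of MICAL2. Of 20 such genes, the factors included, 14 were positive and 6 negative in the authors' deposited table, with a median of 0.05. An unadjusted p under 0.05 was found for 0 of the 20. Over all rows with a p, the median was -0.004, 47.5% were positive and 1.5% had an unadjusted p under 0.05. The median transcript GC content of the list was 52.5%, and 60.8% of the rows in the quintile of GC content that holds this value were positive. Ccn2, a matricellular protein gene, stood at 0.20 ± 0.11 in the authors' deposited table (unadjusted p = 0.0664), and the myosin light chain gene Myl9 had 0.12. Srf itself had 0.04, and the coactivator genes Mrtfa and Mrtfb had 0.03 and -0.05 in the authors' deposited table. Actb and Actg1 belong to this list and to the list of actin genes.

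**Figure D4:**
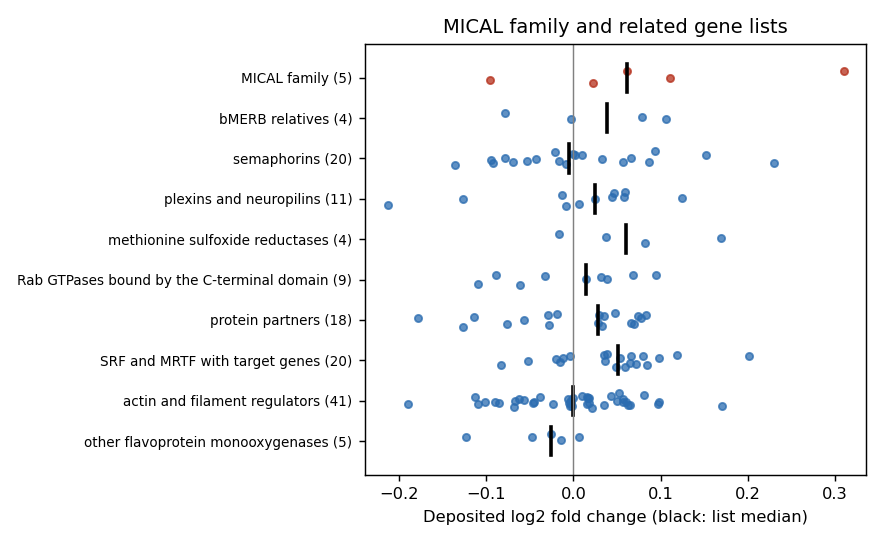
Log2 fold changes as deposited (horizontal axis) of the family and of 9 related lists, with the number of genes with a p in parentheses; each point is a gene and each black bar the list's median. The list medians lie between -0.03 and 0.06, and Mical2 at 0.31 is the highest point in the plot.

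Partners of the C-terminal domain and of the other domains were spread on both sides of 0. Of 9 Rab GTPase genes whose products the bMERB domain binds, 5 were positive and 4 negative in the authors' deposited table, with a median of 0.01. Rab36 and Rab35 had the smallest p of these, which the authors' deposited table puts at -0.11 and 0.09. Among 18 genes of other partners, 10 were positive and 8 negative in the authors' deposited table, with a median of 0.03. The 2 with the smallest p were the membrane-bending protein gene Pacsin2, a partner of Micall1, at -0.18, and the kinase gene Stk38l at -0.13 in the authors' deposited table. Of 5 other flavoprotein monooxygenase genes with a row, out of 7 listed, 1 was positive and 4 were negative in the authors' deposited table, with a median of -0.03. Fmo5 and Fmo2, with mean normalized counts of 18.1 and 22.3, stood at -0.12 and -0.05 there. No gene in these 3 lists passed the threshold, and 0 of their genes had an unadjusted p under 0.05. Among all rows with a p, 0% passed, 1.5% had an unadjusted p under 0.05 and 47.5% were positive, with a median of -0.004.

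GC content moved with the statistic over the whole table, so the members' values are given beside it. The median statistic was -0.517 in the quintile of rows lowest in transcript GC content and 0.306 in the highest quintile. Mical2, at a GC content of 51.8%, lay in the middle quintile, whose median statistic was 0.008, and a linear trend on GC content and length gave a statistic of 0.02 at its values. The other 4 members had a GC content of 55.5% to 58.8% and trend values of 0.19 to 0.34, so that Micall2, with a statistic of -1.06, lay opposite to the trend. With the trend removed and the remainder scaled to its own spread, 5 of 15835 rows passed an adjusted p of 0.05 (0.0316%), with Benjamini-Hochberg adjustment and no refit in DESeq2. These were Mical2 (adjusted p = 0.00898), Lamp5, Snrpn, 5930438M14Rik and F2rl2. All 5 were named after their values were seen. The family was picked with the small p of Mical2 known, so the adjusted p of Mical2 here is a description and no support. When only rows at 10 or more were kept, an alternative added after seeing the data, 3 of 13627 passed (0.022%), among them Mical2 (adjusted p = 0.01004). Scaled without removal of the trend, the adjusted p of Mical2 was 0.0558. What part GC content has in the value of Mical2 was not tested on values per mouse.

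**Figure D5:**
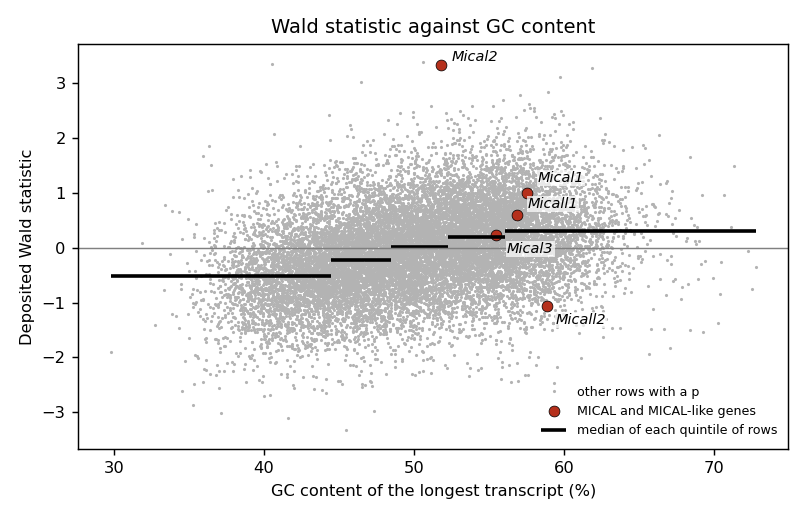
Deposited Wald statistic (vertical axis) against GC content of the longest transcript in percent (horizontal axis) for each row with a p (grey), with the median of each quintile of rows as a black line and the 5 family members in red. The medians go from -0.517 to 0.306; Mical2 lies far above the line of its quintile, and Micall2 lies below its own.

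Markers of brain cells were checked for the labelled tissue and for values that move beside Mical2. All 8 neuronal, 7 astrocyte and 7 oligodendrocyte markers had a row. Per kilobase of the longest transcript, the lowest mean normalized count was 573.3 among the neuronal, 204.3 among the astrocyte and 54.4 among the oligodendrocyte markers. Of the 4 skeletal muscle markers with a row, Acta1 had 71.5 per kilobase and the other 3 at most 3.59. Markers of regions were read on the same scale. Those of cortical excitatory neurons ran from 109.4 (Rorb) to 3906.2 (Slc17a7), and striatal ones from 51.4 (Drd2) to 722.6 (Penk). Of 7 cerebellar markers 5 had a row, without Pcp2 and Gabra6, and these ran from 0.583 (Cbln3) to 199.0 (Calb1). Which brain region was taken was not tested. Neuronal markers were positive for 7 of 8 genes, with a median log2 fold change of 0.07, and those of cortical excitatory neurons for 6 of 8, with a median of 0.04, in the authors' deposited table. Markers of endothelial and mural cells were positive for 8 of 10 (median 0.06) and those of astrocytes for 1 of 7 (median -0.03) in the authors' deposited table. Markers of inhibitory neurons were positive for 2 of 6 (median -0.08) in the authors' deposited table and were spread. Gad1 and Gad2 were both at -0.19 and Pvalb at -0.15, while Slc32a1 was at -0.003, Vip at 0.01 and Sst at 0.09. The medians of the other marker lists lay between -0.03 and 0.07. Among all rows with a p, 47.5% were positive, with a median of -0.004. The part of these cell types in the value of Mical2 was not tested.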

How the data were processed

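Brain RNA from 5 C9-BAC and 3 wild-type mice was extracted with Trizol and made into strand-specific libraries without poly(A) selection, per the labels' protocols. Trimmomatic, Bowtie2, DESeq and DESeq2 with build mm10 are named per the submitters' processing notes; no version is named. The gene models, read counting and filters were not given in the sources used here. A single table with 6 value columns was deposited by the authors. Per the file headers these are the mean normalized count (a signal scaled by the authors and averaged over samples), a fold change with its standard error on the log2 scale, the Wald statistic (a score), an unadjusted p-value and an adjusted one. Recomputed from the other columns, the deposited statistic and the Benjamini-Hochberg adjusted p matched to within 8.3e-07 and 5.3e-12 for all 15944 rows that have a p. The depth of each sample is unknown.

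Row accessions were matched to RefSeq genes of GRCm38.p6 (15853 rows) or to GENCODE vM21 transcripts (77 rows), and 48 rows had no symbol. Transcript length and GC content were found for 15869 rows (99.3%). For 15751 rows they came from the vM21 transcripts of the row's accessions, and for the rest from vM21 transcripts with the same symbol. The alternatives were minimum mean normalized counts of 10 and 100, and scaling of the statistic to its median and median absolute deviation. A further one was removal of a linear trend with GC content and log2 length, followed by the same scaling (Python 3.11.15, numpy 2.4.6, scipy 1.17.1, pandas 2.3.3). The removal was run on simulated data with a linear trend and normal noise built in. That checks the code only and cannot show that the method suits these data. The named genes were all members and bMERB relatives, 2 neighbouring rows on each side, and in each list the genes with an unadjusted p under 0.05 or else the 2 of smallest p; a few others are named for their role. The members, lists and tests were chosen with earlier results of these data known. The comparison of protein sequences in the design was not run.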

Additional observations from a re-analysis of the deposited data

How the results depend on the processing

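None of the 5 members passed as deposited, with minimum mean normalized counts of 10 and 100, or with the statistic scaled to its own spread, and 0 rows of the table did; 239 rows had an unadjusted p under 0.05. With the trend on GC content and length removed and the remainder scaled to its own spread, 1 member passed, Mical2 (5 rows in all). Its statistic there was 4.79. The trend was 0.02 at Mical2, whose deposited statistic was 3.34. Scaling without removal of the trend gave 4.37, which did not pass (Benjamini-Hochberg adjusted p = 0.0558). The pass of Mical2 thus took both the scaling and the removal of the trend from all rows. With both steps limited to rows at or above the minimum of 10, 1 member passed, Mical2 at 4.81 (3 rows in all). That limit was added after seeing the data. The family was picked with the small p of Mical2 known, so these passes support nothing by themselves. The spread of the statistic before the trend was removed was 0.777 by its median absolute deviation. Division by it, as in the scaling alone, enlarges every statistic. The sign of each member's statistic was the same under every alternative run for it, and no member of the 9 other lists passed under any. Medians of the lists with a minimum of 10 differed from those of all members by less than the median standard error. Levels per kilobase with the shortest transcript were 1061.1 for Mical2, 580.3 for Mical3 and 26.2 for Mical1, and were the same for Micall1 and Micall2, which have 1 transcript each. Leaving out single mice was not run, because the table holds no values per mouse. No paired analysis was possible because the table holds no values per mouse and the genotypes share no replicate numbers.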
